A study of Mus musculus with 6 samples.

Results

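The RAS-ERK feedback inhibitors and targets described here are 10 genes: the phosphatases Dusp4, Dusp5 and Dusp6, the SPRED genes Spred1 and Spred2, the Sprouty genes Spry1, Spry2 and Spry4, and the ETS factors Etv4 and Etv5. They were taken by symbol, and each was read from the probe set with 1 gene symbol that had the highest mean over all arrays. All 10 were among the 19938 genes measured in this way. The samples were mouse C57Bl/6 pre-B cells transformed by the fusion kinase BCR-ABL1, in which the only copy of Bcor, on the X chromosome of a male, was floxed (Bcor fl/Y). In the Cre-ERT2 group (3 arrays) the cells were transduced with PMIP-CRE-ERT2, which encodes a Cre recombinase that tamoxifen switches on, and in the ERT2 group (3 arrays) with PMIP-ERT2, which has no Cre. Both groups had the floxed allele, were selected with puromycin, and were kept for 2 days in 4-hydroxytamoxifen at 0.5 micromolar, so that loss of Bcor and the activity of Cre itself cannot be told apart. Nothing in the labels gives separate cultures or mice for the replicates, and p-values then measure only the spread between these arrays, which may be technical.

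RAS proteins, switched on by growth factor receptors or by BCR-ABL1, start a kinase cascade through RAF and MEK to the kinases ERK1 and ERK2. Active ERK induces its own inhibitors: DUSP5 and DUSP6 take phosphate off ERK in the nucleus and the cytoplasm, DUSP4 acts on several MAP kinases in the nucleus, SPRED proteins bring the RAS inactivator neurofibromin to the membrane, and Sprouty proteins block the step between receptor and RAF. The ETS factors ETV4 and ETV5 are induced by the same route, in part because ERK relieves repression by Capicua, a DNA-binding repressor. The level of these transcripts is therefore widely read as a measure of ERK output, and in BCR-ABL1-driven pre-B leukaemia this feedback is known to restrain the signal of the kinase.

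Bcor, the targeted gene, was lower on every Cre-ERT2 array, at a log2 value of 9.16 ± 0.0716 in Cre-ERT2 cells against 10.12 ± 0.0517 in ERT2 cells (SD, n = 3 each), a difference of -0.96 (limma adjusted p = 2.11e-05, SE 0.0491). Its 1 probe set may lie partly outside the deleted stretch. Array medians over all probe sets lay between 8.61 and 8.68 on both sides. The labelled cell type was checked on 12 measured pre-B markers. Igll1, a chain of the surrogate light chain, had a log2 value of 14.25 in Cre-ERT2 cells and 14.20 in ERT2 cells, and Cd79b, a signalling chain of the B cell receptor, 13.62 and 13.52. Of the same list 3 genes of V(D)J recombination were called: terminal transferase Dntt was higher in Cre-ERT2 cells by 0.86 on the log2 scale (SE 0.0741, limma adjusted p = 0.000250), Rag1 was at -0.38 (SE 0.0415, adjusted p = 0.000958) and Rag2 at -0.71 (SE 0.0876, adjusted p = 0.00189), each a greater change than that of any of the 10 genes. The detection limit of the arrays is unknown, so no marker could be called absent.

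The upstream bases of 4 of these genes are shown because they hold the matches that a search for ERK-linked motifs found in the called genes Dusp5 and Spred1, and because Dusp6 and Etv5, which were not called, hold some of the same letters. Spred2, also not called and not printed, holds the ETS core of Spred1, on the other strand at -43 from the gene start. The sequences come from RefSeq (build GRCm38.p6), run 5′ to 3′ over the 250 bases before the gene start, and were found for 7 of the 10 genes, in 8 windows. Dusp4, Spry4 and Etv4 had no entry. Capitals mark TGAATG (or CATTCA on the other strand), the core of the Capicua motif, CGGAAG (or CTTCCG), an ETS core, and the CArG box bound by the serum response factor SRF.
Dusp5 promoter, chr19:53528895-53529144, plus strand: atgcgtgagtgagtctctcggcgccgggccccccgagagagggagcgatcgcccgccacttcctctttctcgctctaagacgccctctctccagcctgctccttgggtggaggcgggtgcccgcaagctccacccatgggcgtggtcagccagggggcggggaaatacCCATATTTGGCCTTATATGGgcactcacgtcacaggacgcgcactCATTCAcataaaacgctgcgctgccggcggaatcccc
Spred1 promoter, chr2:117120821-117121070, plus strand: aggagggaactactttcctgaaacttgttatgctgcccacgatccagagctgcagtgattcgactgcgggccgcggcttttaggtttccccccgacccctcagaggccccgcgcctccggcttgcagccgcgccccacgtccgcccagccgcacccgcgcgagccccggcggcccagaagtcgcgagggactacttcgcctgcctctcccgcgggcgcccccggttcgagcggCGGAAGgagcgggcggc
Dusp6 promoter, chr10:99262981-99263230, plus strand: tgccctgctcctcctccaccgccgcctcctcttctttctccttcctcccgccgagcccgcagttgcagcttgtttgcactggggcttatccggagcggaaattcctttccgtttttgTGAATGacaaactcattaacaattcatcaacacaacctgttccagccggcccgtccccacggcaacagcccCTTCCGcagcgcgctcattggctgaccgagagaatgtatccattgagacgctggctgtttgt
Etv5 promoter, chr16:22438369-22438618, minus strand: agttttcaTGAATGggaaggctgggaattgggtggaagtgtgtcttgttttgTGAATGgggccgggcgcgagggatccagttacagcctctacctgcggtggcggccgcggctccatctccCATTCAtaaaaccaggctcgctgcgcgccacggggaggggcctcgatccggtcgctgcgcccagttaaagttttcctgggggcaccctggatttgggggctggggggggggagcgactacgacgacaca

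Dusp5 held 2 adjoining CArG boxes, starting at -82 and -72 from the gene start, and 1 TGAATG core at -37. Spred1 held no TGAATG core and 1 ETS core, at -17. Dusp6 held a TGAATG core at -133 and an ETS core at -62. The second start of Etv5 held 3 TGAATG cores, at -242, -198 and -129, and its first start held none. Of the 3 further motifs searched on both strands alongside these, AP-1 (TGANTCA), CRE (TGACGTCA) and the longer ETS motif CCGGAAGT, which contains the ETS core, none was found in the 8 windows, and neither was TGAATGNA, an extension of the Capicua core. Among all 32851 windows of the same length, TGAATG was in 10.9%, CGGAAG in 13.6%, the CArG box in 1.47%, TGANTCA in 6.75%, TGACGTCA in 1.55%, CCGGAAGT in 2.88% and TGAATGNA in 3.20%. For the 8 windows here the counts were 3 with TGAATG, 3 with CGGAAG and 1 with a CArG box. The bases G and C made up a median of 62.4% of these 8 windows and 52.4% of all windows. What part this base content has in the counts was not tested. The called genes Dusp5 and Spred1 shared none of these motifs. A match describes the letters alone and shows no binding.

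Among the 10 genes, Dusp4 and Dusp5 rose and Spred1 fell in Cre-ERT2 cells, and the other 7 did not pass the test. Each change was small, 1.26-fold for Dusp4, 1.19-fold for Dusp5 and 1.24-fold for Spred1. The question behind the comparison, by the series title, is what Bcor does in BCR-ABL1-driven pre-B cells. Genes were tested with limma on the log2 values of all 6 arrays, as Cre-ERT2 minus ERT2, and called at an adjusted p under 0.05 over all 19938 genes. By this rule 3 of the 10 genes were called, against 7.03% of all genes. The 2 that rose stand beside 4.05% of all genes called higher, and the 1 that fell beside 2.98% called lower. The share called was higher when dim genes were left out and the fit and adjustment were redone. With the dimmest 30% or 50% of genes left out, which kept all 10, the share of remaining genes called was 12.5% or 17.1%. In both cases 5 of the 10 genes were called. Groups did not overlap for 7 of the 10 genes, against 29.9% of all genes. The median log2 fold change was -0.0084 over the 10 genes and -0.037 over all genes, and the median absolute log2 fold change was 0.12 over the 10 genes and 0.063 over all genes. The 10 genes were chosen with earlier results of these arrays known, and no test was made of them as a set. In RNA from a whole culture, a change in the share of cells of one kind and a change in RNA per cell cannot be told apart.

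**Figure D1:**
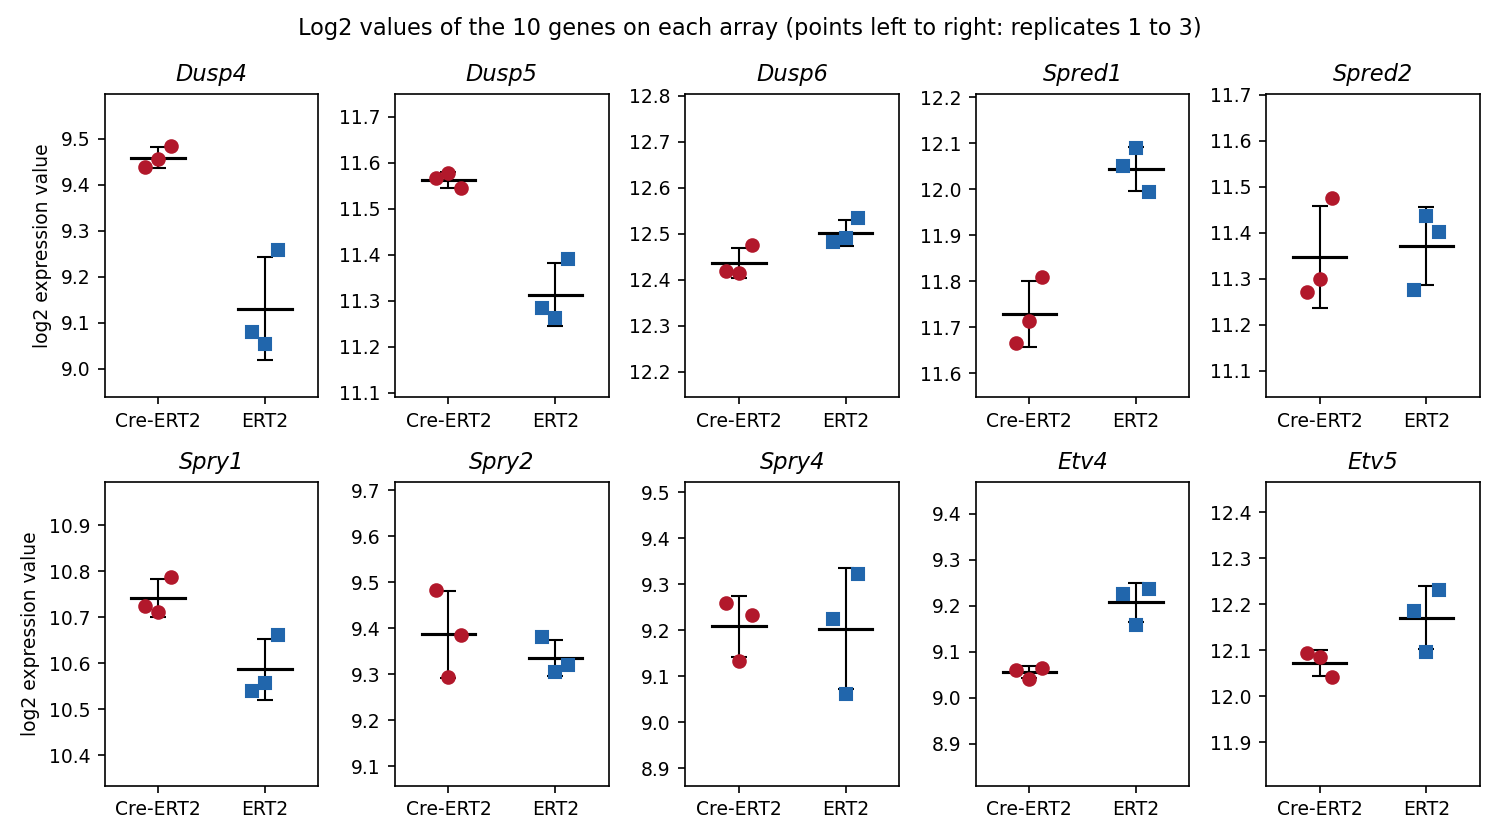
Log2 expression values (y axis, a separate range of equal height for each gene) of the 10 genes on the 3 Cre-ERT2 arrays (circles, left) and the 3 ERT2 arrays (squares, right); lines are group means and bars the SD. Dusp4, Dusp5 and Spry1 lie higher on every Cre-ERT2 array, Spred1, Dusp6, Etv4 and Etv5 lower, and the groups overlap for Spred2, Spry2 and Spry4.

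Of the 3 phosphatases, Dusp4 and Dusp5 rose and Dusp6 did not pass. Dusp4, the nuclear phosphatase of several MAP kinases, had log2 values of 9.44, 9.45 and 9.48 on the Cre-ERT2 arrays, against 9.08, 9.05 and 9.26 on the ERT2 arrays. All Cre-ERT2 arrays were higher, and ERT2 replicate 3 stood nearest to them. The means were 9.46 ± 0.0229 in Cre-ERT2 cells and 9.13 ± 0.112 in ERT2 cells (SD, n = 3 each), so the log2 fold change was 0.33 (limma adjusted p = 0.0102, SE 0.0568). Dusp5, the nuclear phosphatase specific to ERK, had log2 values of 11.57, 11.58 and 11.54 on the Cre-ERT2 arrays, against 11.28, 11.26 and 11.39 on the ERT2 arrays. Again every Cre-ERT2 array was higher and ERT2 replicate 3 came closest. Dusp5 averaged 11.56 ± 0.0169 in Cre-ERT2 cells and 11.31 ± 0.0687 in ERT2 cells (SD, n = 3 each), and the log2 fold change was 0.25 (limma adjusted p = 0.0116, SE 0.0445). The Dusp5 call ended without Cre-ERT2 replicate 2 (adjusted p = 0.0580) or ERT2 replicate 1 (0.0590), with the log2 fold change at 0.24 in each case, whereas that of Dusp4 held with any array left out.

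Dusp6, the cytoplasmic ERK phosphatase, had log2 values of 12.42, 12.42 and 12.47 on the Cre-ERT2 arrays, against 12.48, 12.49 and 12.53 on the ERT2 arrays. The groups did not overlap, but the gap between them was narrow and the gene did not pass. Its log2 fold change was -0.066 (SE 0.0387, limma adjusted p = 0.347), with a 95% interval from -0.15 to 0.023. This interval lies wholly below that of Dusp4, from 0.20 to 0.46, and that of Dusp5, from 0.15 to 0.35. Within arrays, the log2 difference Dusp4 minus Dusp6 was 0.39 greater in Cre-ERT2 cells, and Dusp5 minus Dusp6 was 0.32 greater, with no overlap of the groups in either. Dusp4 minus Dusp5 was greater in Cre-ERT2 cells by 0.079, also without overlap. Exact two-sided permutation tests over the arrays gave p = 0.1 for each of these 3 differences, the smallest p that 3 against 3 arrays allow (adjusted p = 0.2 over the 8 pairs within families that were compared).

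Of the SPRED genes, Spred1 fell and Spred2 did not pass. Spred1, an inhibitor of RAS that recruits neurofibromin, had log2 values of 11.67, 11.71 and 11.81 on the Cre-ERT2 arrays, against 12.05, 12.09 and 11.99 on the ERT2 arrays. Every Cre-ERT2 array was lower, the least so replicate 3. Its means were 11.73 ± 0.0721 in Cre-ERT2 cells and 12.04 ± 0.0484 in ERT2 cells (SD, n = 3 each), a log2 difference of -0.31 (limma adjusted p = 0.00592, SE 0.0487) that put the Cre-ERT2 level at 80.4% of the ERT2 level. The call held with any array left out. Spred2, its close relative with the same role, had log2 values of 11.27, 11.30 and 11.47 on the Cre-ERT2 arrays, against 11.27, 11.44 and 11.40 on the ERT2 arrays, which overlapped. The log2 fold change of Spred2 was -0.022 (SE 0.0650, limma adjusted p = 0.864), with a 95% interval from -0.17 to 0.13, and it turned to 0.00019 after cyclic loess. A second probe set of Spred2 gave -0.024 (SE 0.0402, limma adjusted p = 0.755 in a separate fit and adjustment over 21789 single-symbol probe sets). The log2 difference Spred1 minus Spred2 was lower by 0.29 in Cre-ERT2 cells (-0.29, Cre-ERT2 minus ERT2), without overlap of the groups (exact permutation p = 0.1, two-sided, adjusted p = 0.2).

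No Sprouty gene passed the test. Spry1, which inhibits signalling between receptor and RAF, had log2 values of 10.72, 10.71 and 10.79 on the Cre-ERT2 arrays, against 10.54, 10.56 and 10.66 on the ERT2 arrays. Its Cre-ERT2 arrays were all higher, by 0.15 on the log2 scale (limma adjusted p = 0.0892, SE 0.0462) with a 95% interval from 0.049 to 0.26. Spry1 passed with array weights (adjusted p = 0.0202), after cyclic loess (0.0378), and with the dimmest 30% (0.0499) or 50% (0.0377) of genes left out. It did not pass with the replicate number as a block or with any 1 array left out. Its adjusted p over all alternatives reached 0.248. Spry2 had log2 values of 9.48, 9.29 and 9.39 on the Cre-ERT2 arrays, against 9.38, 9.31 and 9.32 on the ERT2 arrays. The groups overlapped, and the log2 fold change was 0.052 with a 95% interval from -0.069 to 0.17 (limma adjusted p = 0.590). Spry4 had log2 values of 9.26, 9.13 and 9.23 on the Cre-ERT2 arrays, against 9.22, 9.06 and 9.32 on the ERT2 arrays, also with overlap. Its log2 fold change was 0.0056, with a 95% interval from -0.15 to 0.16 (limma adjusted p = 0.968), and its sign turned with array weights (-0.021) and quantile normalization (-0.0067). Spry4 had one of the wider spreads, a residual SD of 0.104 against a median of 0.0587 over all genes. Within arrays, the groups overlapped for the log2 differences Spry1 minus Spry2 (0.10, Cre-ERT2 minus ERT2, exact permutation p = 0.3), Spry1 minus Spry4 (0.15, p = 0.2) and Spry2 minus Spry4 (0.046, p = 0.8).

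**Figure D2:**
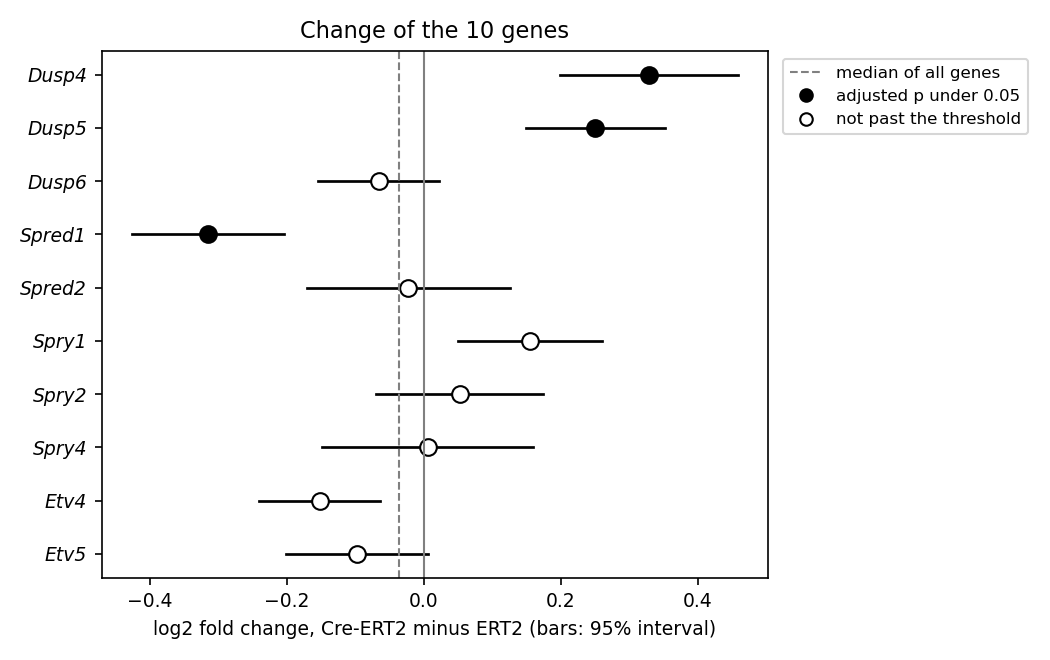
Log2 fold change of each gene, Cre-ERT2 minus ERT2 (x axis), with its 95% interval; filled points passed an adjusted p of 0.05 and the dashed line is the median of all genes, -0.037. Dusp4 (0.33) and Dusp5 (0.25) lie to the right, Spred1 (-0.31) to the left, and the intervals of Spry1 and Etv4 leave out 0 although neither gene passed.

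Neither ETS factor passed the test. Etv4, a transcription factor of the PEA3 group induced by ERK, had log2 values of 9.06, 9.04 and 9.07 on the Cre-ERT2 arrays, against 9.23, 9.16 and 9.24 on the ERT2 arrays. The groups did not overlap. Means were 9.06 ± 0.0125 in Cre-ERT2 cells and 9.21 ± 0.0419 in ERT2 cells (SD, n = 3 each), a log2 difference of -0.15 (limma adjusted p = 0.0532, SE 0.0387), with a 95% interval from -0.24 to -0.063. Etv4 passed with array weights (adjusted p = 0.0113), after quantile normalization (0.0283) or median centring (0.0441), and with the dimmest 30% (0.0257) or 50% (0.0173) of genes left out.

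Etv5, of the same PEA3 group, had log2 values of 12.09, 12.09 and 12.04 on the Cre-ERT2 arrays, against 12.18, 12.10 and 12.23 on the ERT2 arrays. The groups were just apart, with a log2 difference of -0.097 (limma adjusted p = 0.242, SE 0.0453, 95% interval from -0.20 to 0.0061). This probe set, 10363901, is annotated to Etv5, but the 10 named probe sets with the nearest numbers, 5 on each side, all belong to genes of chromosome 10 in the GRCm38.p6 gene table, where Etv5 is on chromosome 16. The second probe set, 10438626, is numbered among genes of chromosome 16. Its log2 values were 11.32, 11.26 and 11.28 on the Cre-ERT2 arrays, against 11.44, 11.18 and 11.46 on the ERT2 arrays. There the groups overlapped, and the log2 difference was -0.074 (limma adjusted p = 0.577 in the fit over single-symbol probe sets, SE 0.0712). Both probe sets of Etv5 thus gave a small difference below 0 that did not pass, and which sequence the first one reads was not tested. The log2 difference Etv4 minus Etv5 was -0.054 (Cre-ERT2 minus ERT2), with overlap (exact permutation p = 0.2, two-sided).

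The arrays of each group were compared with one another over the 10 genes. Relative to its group mean, Cre-ERT2 replicate 3 was higher for 7 of the 10 genes (median deviation 0.024 on the log2 scale) and ERT2 replicate 3 for 8 (median deviation 0.046), while Cre-ERT2 replicate 2 and ERT2 replicate 2 were each higher for 2. Over all genes the median deviation was 0.019 for Cre-ERT2 replicate 3 and 0.017 for ERT2 replicate 3. That of ERT2 replicate 2 was -0.039 over the 10 genes and -0.012 over all genes. The residual SD was lowest for Dusp6, at 0.0308, and highest for Spry4. The median over the 10 genes, 0.0581, was close to the 0.0587 of all genes.

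For each called gene, the 3 genes with the most alike profile were found by the root mean square difference of the 6 log2 values, each gene centred on its own mean. Nearest to Dusp4 were Dmwd (difference 0.0257), Prr5, a subunit of the kinase complex mTORC2 (0.0264), and Ppp1r13b, a p53-binding protein (0.0280), with log2 fold changes of 0.36, 0.32 and 0.32. For Dusp5 they were Irs2, an adaptor of insulin and cytokine receptors (0.0139), Ubash3b, a phosphatase that dampens tyrosine kinase signalling (0.0147), and Csf2rb, the shared beta chain of cytokine receptors (0.0159), with log2 fold changes of 0.24, 0.23 and 0.24. The profiles closest to that of Spred1 were those of Plxna2, a semaphorin receptor (0.0186), Tarbp1, an RNA methyltransferase (0.0232), and Sema6d, a semaphorin (0.0257), with log2 fold changes of -0.33, -0.28 and -0.31. All 9 passed the same test, and because the profiles were matched on the same arrays this adds nothing on a link between the genes. Arrays left out ended the calls of Ubash3b (without any 1 of replicates 1 and 2 of each group, limma adjusted p as high as 0.0771), Csf2rb (without Cre-ERT2 replicate 2 or ERT2 replicate 1 or 2, up to 0.0732) and Tarbp1 (without Cre-ERT2 replicate 2, 0.0576). The Ubash3b call also ended with the replicate number as a block.

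Other pathway genes that passed were mostly higher in Cre-ERT2 cells. Of 93 further pathway genes in 6 lists, 82 were measured, and 10 of them rose and 1 fell, which is 13.4% called against 7.03% of all genes. That count was 7 without Cre-ERT2 replicate 1 or without ERT2 replicate 1. With the dimmest 30% or 50% of genes left out, 12.5% or 17.1% of all remaining genes were called. The pathway genes called then numbered 13 or 14, out of fewer than 82 still tested, a number that was not counted. The 13.4% is from the fit with dim genes kept, so it does not compare with these 2 shares. Of 23 measured other genes induced by ERK, 3 rose, 1 fell and 19 did not pass (17.4% called), with a median log2 fold change of -0.0073. Emp1, an epithelial membrane protein, had log2 values of 11.91, 11.91 and 11.87 on the Cre-ERT2 arrays, against 10.97, 10.90 and 10.98 on the ERT2 arrays. It was 1.93-fold higher in Cre-ERT2 cells, the greatest change among the 82 genes, or 0.95 on the log2 scale (limma adjusted p = 7.71e-06, SE 0.0393). Ccnd1, which encodes cyclin D1, had log2 values of 11.50, 11.46 and 11.49 on the Cre-ERT2 arrays, against 10.83, 10.83 and 11.00 on the ERT2 arrays. Every Cre-ERT2 array was higher, by 0.60 on the log2 scale (limma adjusted p = 0.000267, SE 0.0519). Hbegf, a ligand of the EGF receptor, rose by 0.33 (SE 0.0457, limma adjusted p = 0.00353). Egr1, an immediate early factor induced by ERK, fell by 0.25 (SE 0.0512, limma adjusted p = 0.0209), a call that ended without replicate 1 or 2 of the Cre-ERT2 group or replicate 1 or 3 of the ERT2 group (adjusted p up to 0.0892).

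**Figure D3:**
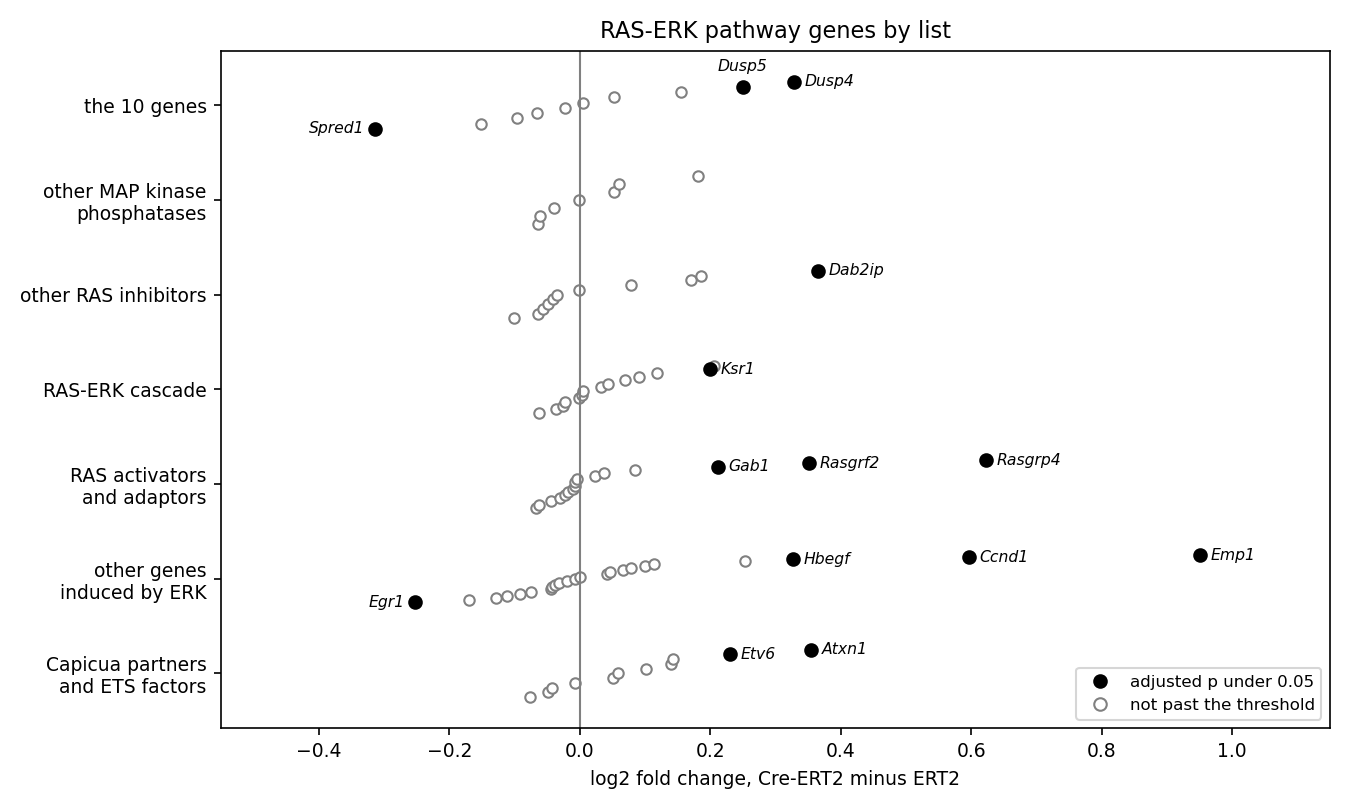
Log2 fold change, Cre-ERT2 minus ERT2 (x axis), of the measured genes in each pathway list, 1 point per gene; filled points, with names, passed an adjusted p of 0.05. Emp1 (0.95), Rasgrp4 (0.62) and Ccnd1 (0.60) lie farthest to the right, while Spred1 (-0.31) and Egr1 (-0.25) are the named points on the left.

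Upstream of ERK, 3 of 16 measured RAS activators and adaptors rose and 0 fell (18.8% called, against 7.03% of all genes). Rasgrp4, an exchange factor that loads RAS with GTP, had log2 values of 9.12, 9.21 and 9.31 on the Cre-ERT2 arrays, against 8.51, 8.59 and 8.66 on the ERT2 arrays. It rose by 0.62 on the log2 scale (SE 0.0593, limma adjusted p = 0.000424). Rasgrf2, another exchange factor, rose by 0.35 (SE 0.0464, adjusted p = 0.00268), and the docking protein gene Gab1 by 0.21 (SE 0.0421, adjusted p = 0.0196). Mean log2 values were 7.91 in Cre-ERT2 cells and 7.56 in ERT2 cells for Rasgrf2, and 8.61 and 8.40 for Gab1. Rasgrf2 was left out with the dimmest 30% of genes, and Gab1 only with the dimmest 50%. How far either gene lies above background is unknown. In the RAS-ERK cascade itself, 1 of 14 measured genes rose and 0 fell, and 7 further genes of that list were not analysed here. The share called in this list was 7.14%, near the 7.03% of all genes. The gene that rose was Ksr1, a scaffold that holds RAF, MEK and ERK together, by 0.20 (SE 0.0361, limma adjusted p = 0.0125). The Gab1 call ended without Cre-ERT2 replicate 1 or ERT2 replicate 1 or 2 (adjusted p up to 0.0903), and the Ksr1 call without replicate 1 of either group (as high as 0.0654). With the replicate number as a block, the calls of Gab1 (0.0615) and Ksr1 (0.0512) ended as well.

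Among other inhibitors of RAS, 1 of 11 measured genes rose and 0 fell (9.09% called, near the 7.03% of all genes). It was Dab2ip, a RAS GTPase-activating protein, with log2 values of 9.65, 9.67 and 9.57 on the Cre-ERT2 arrays, against 9.27, 9.22 and 9.30 on the ERT2 arrays. Its log2 fold change was 0.36 (SE 0.0433, limma adjusted p = 0.00151). Of 7 other dual-specificity phosphatases of MAP kinases, 0 passed by limma and 1 had an unadjusted p under 0.05, against 23% of all genes: Dusp2 was at 0.18 (SE 0.0551, adjusted p = 0.0932), and Dusp7, a relative of Dusp6, was at -0.064 (SE 0.0423, adjusted p = 0.402). Of 11 Capicua partners and ETS factors, 2 rose and 0 fell (18.2% called, against 7.03% of all genes). These were Atxn1, a partner of Capicua, by 0.36 (SE 0.0729, limma adjusted p = 0.0224), and the repressor Etv6 by 0.23 (SE 0.0502, adjusted p = 0.0298). The Atxn1 call ended without replicate 2 or 3 of either group (adjusted p up to 0.0702) and the Etv6 call without any 1 of replicates 1 and 2 of each group (as high as 0.109). Both calls also ended with the replicate number as a block (0.0978 for Atxn1 and 0.0812 for Etv6).

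Markers of other cells were set beside these results. Of 11 measured myeloid markers 1 rose and 1 fell, and the mean log2 value over the list ran from 8.06 to 8.09 on the Cre-ERT2 arrays, against 8.10 to 8.13 on the ERT2 arrays. Lyz2, which encodes a lysozyme of myeloid cells, rose by 0.45 on the log2 scale (SE 0.0662, limma adjusted p = 0.00488), Mrc1, a mannose receptor of macrophages, fell by 0.54 (SE 0.0446, adjusted p = 0.000219), and Cd68 had log2 values of 9.46 in Cre-ERT2 cells and 9.41 in ERT2 cells. Of 12 stromal markers 0 passed by limma and 5 had an unadjusted p under 0.05, where 23% of all genes had one. The list averaged 8.20 to 8.22 on the Cre-ERT2 arrays, against 8.26 to 8.31 on the ERT2 arrays, with Col1a1 at 9.57 and 9.66 and Col1a2 at 9.07 and 9.18 as group means in that order. Of 10 T and NK cell markers 0 rose and 1 fell, with list means of 7.72 to 7.75 on the Cre-ERT2 arrays, against 7.77 to 7.85 on the ERT2 arrays. The marker that fell was Ncr1, an activating receptor of NK cells, at -0.23 (SE 0.0410, limma adjusted p = 0.0127), a call that ended without Cre-ERT2 replicate 1 (adjusted p = 0.0529), after quantile normalization (0.0620) and after cyclic loess (0.0525). Ncr1 had mean log2 values of 6.78 in Cre-ERT2 cells and 7.01 in ERT2 cells, and was left out with the dimmest 30% of genes. Cd3e was at 8.51 in Cre-ERT2 cells and 8.54 in ERT2 cells, and Zap70 at 8.40 and 8.50. Of 4 measured erythroid markers 0 passed by limma and 0 had an unadjusted p under 0.05, the list means were 9.29 to 9.37 on the Cre-ERT2 arrays and 9.30 to 9.36 on the ERT2 arrays, and Tfrc was at 12.60 and 12.63 and Epor at 8.51 in both groups. Of 12 measured pre-B markers 1 rose and 2 fell, with list means of 11.78 to 11.82 on the Cre-ERT2 arrays and 11.79 to 11.83 on the ERT2 arrays. Over all genes, 7.03% were called, groups did not overlap for 29.9%, and the median log2 fold change was -0.037. The list means were not adjusted for this shift. What part any of these markers has in the changes of the 10 genes was not tested.

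**Figure D4:**
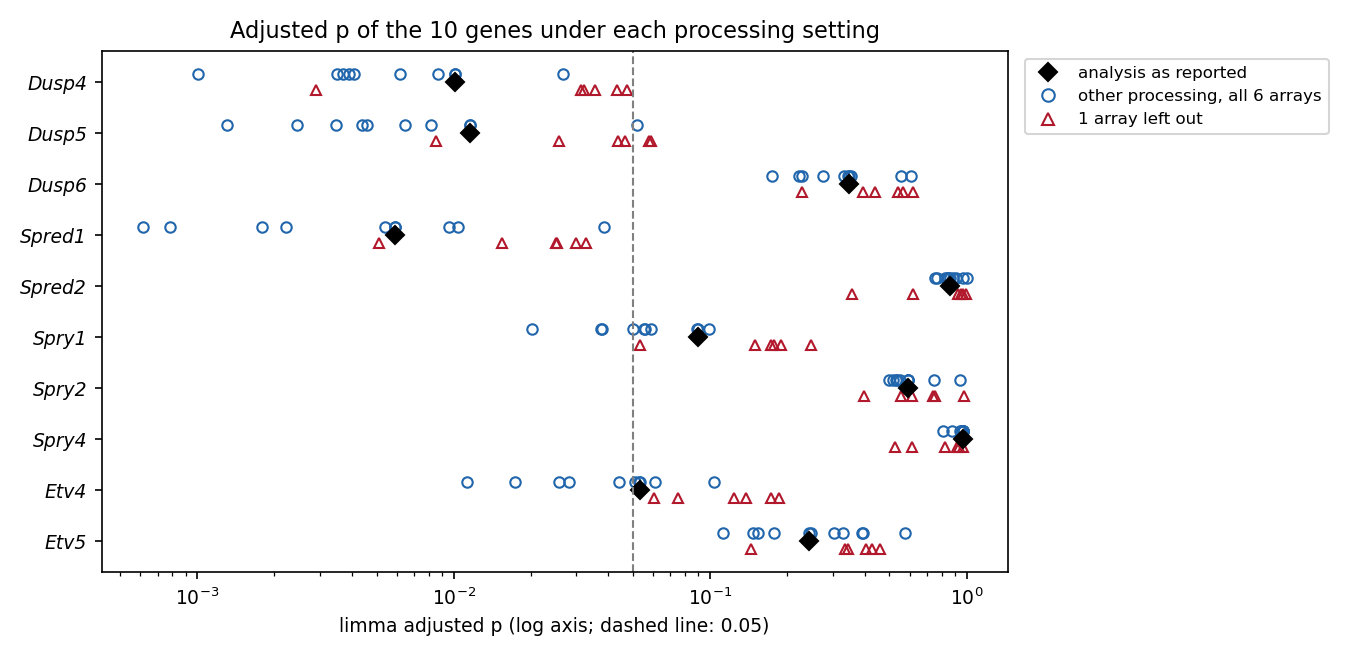
Limma adjusted p (x axis, log scale) of the 10 genes in the analysis as reported (diamonds), under other processing of all 6 arrays (circles) and with 1 array left out (triangles); the dashed line is 0.05. Dusp4 and Spred1 stay left of the line under every setting drawn, Dusp5, Spry1 and Etv4 have points on both sides, and the other 5 genes stay to the right.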

How the data were processed

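RNA of 3 Cre-ERT2 and 3 ERT2 samples was read on whole-transcript Affymetrix arrays. The authors deposited log2 values per probe set. Per the submitters' processing notes, the tools were RMA and Partek 6.5, whose order and role are not stated, and the background setting and genome build are not given in the sources used here. Of 35556 probe sets, 21789 had 1 gene symbol in the platform annotation, 1621 had more than 1 symbol and 12146 had none listed. Genes were read from their single-symbol probe set of highest mean. The GRCm38.p6 gene list held the identifiers of 21698 of these probe sets and lacked 91.

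The test was that of limma 3.58.1 (R 4.3.3, lmFit, then eBayes without a trend) with Benjamini-Hochberg adjustment over 19938 genes, input was read by the package data.table (version 1.17.8), and figures were made in Python 3.11.15 (pandas 2.3.3, matplotlib 3.10.9). SE is the moderated standard error, and 95% intervals of a log2 fold change are built from it. The number of arrays limits the precision, with a median SE of 0.0477 per log2 fold change. The fit was tested on simulated data. The 10 genes, the lists and the tests were chosen with earlier results of these data known. The second probe sets, which were fitted and adjusted over all 21789 single-symbol probe sets, and the 8 within-family pairs were added after the data were seen.

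Named genes were the 10 genes, Bcor, up to 4 called genes of largest change per pathway list (or the 2 of smallest p), the 2 markers of highest mean per marker list, and the 3 genes nearest in profile to each called gene. Mrc1, Ncr1, Dntt, Rag1 and Rag2 are named outside this rule, once their values were known. As alternatives, the fit was run with a replicate block, an intensity trend, array weights, quantile normalization, median centring, cyclic loess, no genes among the dimmest 30% or 50%, averaged probe sets per gene, an adjusted p of 0.1, and each array left out. Probe sets with several symbols or none were left out of the tests.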

Additional observations from a re-analysis of the deposited data

How the results depend on the processing

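Dusp4 and Spred1 kept their direction and their call under all 16 alternatives, with log2 fold changes of 0.29 to 0.39 and -0.35 to -0.28 and adjusted p of at most 0.0476 and 0.0387. The number of the 10 genes called was 3 as reported. It was 2 to 3 with 1 array left out. Spry1 and Etv4 made it 5 with array weights, without the dimmest 30% or 50% of genes, and at an adjusted p of 0.1. The share of all tested genes called was also higher there, at 16.7%, 12.5%, 17.1% and 11.4% in that order, against 7.03% as reported. The count over all genes was 1402 as reported, 805 with the replicate number as a block, 3339 with array weights, 2271 at an adjusted p of 0.1, and 743 (without Cre-ERT2 replicate 2) to 1341 with 1 array left out. Other pathway genes called numbered 11 as reported, 7 with the replicate block, 20 with array weights and 7 to 12 with 1 array left out. The share of calls that were higher was 57.6% as reported, 39.4% with array weights, 71.2% after cyclic loess and 47.6% at an adjusted p of 0.1. With the replicate block, 2 of the 10 genes were called, since Dusp5 had an adjusted p of 0.0518. Nothing in the labels says whether the numbers mark a shared batch. Over all genes, deviations of same-numbered arrays from their group means correlated at 0.0506, -0.0946 and -0.26 for replicates 1, 2 and 3. Arrays with different numbers correlated at -0.29 to 0.31. With 3 arrays per group, these values cannot settle whether same-numbered arrays share a batch. Spred2 turned to 0.00019 after cyclic loess and ranged from -0.086 to 0.017 with 1 array left out, turning to 0.017, 0.0021 and 0.010 without Cre-ERT2 replicate 1, Cre-ERT2 replicate 2 or ERT2 replicate 2. Spry4 turned to -0.021 with array weights, -0.0067 after quantile normalization, ranged from -0.065 to 0.065 with 1 array left out, and turned to -0.020, -0.0064 and -0.065 without Cre-ERT2 replicate 1, Cre-ERT2 replicate 3 or ERT2 replicate 2. The cause of these shifts was not tested. With the arrays' signal over background unknown, small differences of dim genes cannot be told from a floor.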
